A study of Mus musculus with 14 samples.

Results

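Cell cycle and DNA replication genes were followed as 54 genes, out of 54532 in each deposited count table, in cultured fibroblasts and in livers with and without loss of the telomere-binding protein gene *Trf2* (*Terf2*). The members were found by their symbols in the liver table and joined by Ensembl ID to the fibroblast table, and each was found once in both. They comprise 22 S phase genes, 12 genes of G1/S control and 20 mitosis genes. RNA was sequenced from 3 cultures of senescent iMEFs, which are Trf2F/F;Rosa-CreER embryonic mouse fibroblasts that SV40 large T antigen made immortal, given 4-hydroxytamoxifen (4HT) and collected on day 7. The 3 control cultures had the same genotype and received vehicle. RNA was also taken from the livers of 4 Trf2F/F;Rosa-mTmG mice at 6 weeks after AAV8-Tbg-Cre (senescent livers) and of 4 Rosa-mTmG mice given the same virus (control livers). By the study's methods all these mice were homozygous for the mTmG reporter. Every iMEF library thus came from cells that started with floxed *Trf2*, CreER and large T, and every liver library came from a mouse given Cre. The *TBG* promoter expresses Cre in hepatocytes, while whole liver was sequenced. No iMEF library came from cells given 4HT without the loss of *Trf2*, so effects of 4HT, of active Cre and of the loss cannot be told apart. No source used here gives the ages of the mice at injection.

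A cell that enters the cycle makes D-type cyclins, which with CDK4 and CDK6 phosphorylate the retinoblastoma (RB) proteins and free the E2F factors to transcribe replication genes. Mitosis genes are transcribed later, by the MuvB complex with B-MYB and FOXM1, and both sets are shut down by RB proteins and the p21-dependent DREAM complex when normal cells senesce. SV40 large T antigen binds RB proteins and p53, and adult hepatocytes are mostly quiescent.

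Levels are gene counts scaled to a fixed library size (CPM) after TMM scaling within each tissue, and changes are log2 fold changes, senescent over control, from the quasi-likelihood test of edgeR, with p-values adjusted by Benjamini-Hochberg over all genes tested. A gene passed at an adjusted p under 0.05. Libraries held 15364450 to 20177401 reads in genes. The labels were checked on *Terf2*, at 0.215 to 0.305 CPM in senescent iMEFs and 37.7 to 39.2 CPM in control iMEFs, and at 2.84 to 4.91 CPM in senescent livers and 11.3 to 13.8 CPM in control livers. *Cdkn1a*, which encodes the CDK inhibitor p21, was at 188 to 210 CPM in senescent iMEFs against 40.9 to 50 CPM in control iMEFs, and at 55.6 to 148 CPM in senescent livers against 9.32 to 35.9 CPM in control livers. Of 8 fibroblast marker genes 6 were lower and 1 higher in senescent iMEFs, with summed levels of 2822 to 4101 CPM against 13468 to 14699 CPM in control iMEFs, while 7 of 8 hepatocyte markers had no read in senescent iMEFs and 6 of 8 had none in control iMEFs. In livers all 8 hepatocyte markers were detected.

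Promoters of the members were read first, because the transcription factors named above recognise short motifs in them. RefSeq promoters (build GRCm38.p6) were matched for 43 of the 54 members, 47 promoters in all, and 250 bases before and 30 bases after the start site were searched on both strands. The E2F motif was taken as TTCCCGC or as TTCGCGC, and also in the forms TTGGCGC and then TTGCCGC. The cell cycle genes homology region (CHR), the MuvB element, was taken as TTTGAA or else as TTCGAA, which is its own reverse complement, and the NF-Y motif as CCAAT. An E2F match ending in CCAA overlaps an NF-Y match where a T follows, and such bases were counted for both. E2F matches were found in 13 of 19 S phase promoters (68.4%), 3 of 16 mitosis promoters (18.8%) and 3 of 12 G1/S control promoters (25%), beside 8.9% of all 32851 promoters. CHR matches were found in 4 S phase promoters (21.1%), 10 mitosis promoters (62.5%) and 2 G1/S control promoters (16.7%), beside 18.4% of all promoters. NF-Y matches were found in 14 S phase promoters (73.7%), 14 mitosis promoters (87.5%) and 6 G1/S control promoters (50%), beside 36.1% of all promoters. E2F matches were thus most frequent in S phase promoters and CHR matches in mitosis promoters. A match is a description of the letters and not of binding.

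**Figure D1:**
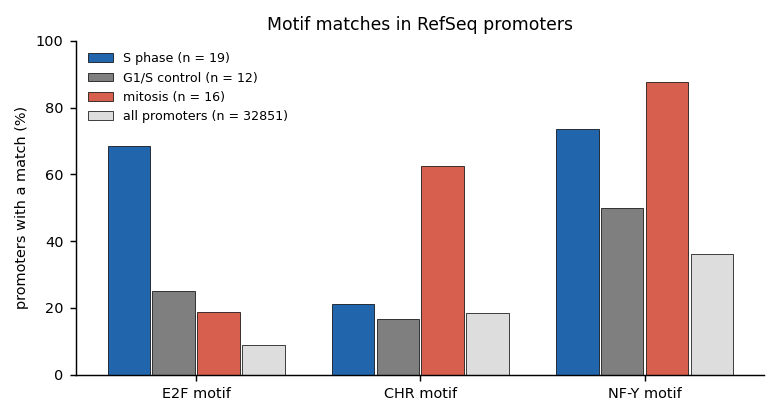
Share of RefSeq promoters (y axis, percent) with at least 1 match to the E2F, CHR or NF-Y motif (x axis), for S phase, G1/S control and mitosis members and for all promoters (bars). E2F matches stood at 68.4% of S phase promoters and CHR matches at 62.5% of mitosis promoters.

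Promoters of 6 members that the results below turn on are printed 5′ to 3′, with E2F, CHR and NF-Y matches in capitals. *Mcm5*, at chr8:75109259-75109538 (plus strand), and *Rfc3*, at chr5:151651179-151651458 (minus strand), were lower in senescent iMEFs, and *Rrm2*, at chr12:24708004-24708283 (plus strand), and *Bub1*, at chr2:127831830-127832109 (minus strand), were higher. *Top2a*, at chr11:99024160-99024439 (minus strand), did not pass in iMEFs, and *Cdc45*, at chr16:18811943-18812222 (minus strand), passed the test of the difference between the tissues.
*Mcm5*: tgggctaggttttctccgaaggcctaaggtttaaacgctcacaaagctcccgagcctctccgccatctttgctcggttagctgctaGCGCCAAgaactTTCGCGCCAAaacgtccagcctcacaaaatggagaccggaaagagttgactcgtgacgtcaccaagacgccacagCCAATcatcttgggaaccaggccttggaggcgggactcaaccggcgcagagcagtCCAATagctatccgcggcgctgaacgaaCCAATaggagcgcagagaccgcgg
*Rfc3*: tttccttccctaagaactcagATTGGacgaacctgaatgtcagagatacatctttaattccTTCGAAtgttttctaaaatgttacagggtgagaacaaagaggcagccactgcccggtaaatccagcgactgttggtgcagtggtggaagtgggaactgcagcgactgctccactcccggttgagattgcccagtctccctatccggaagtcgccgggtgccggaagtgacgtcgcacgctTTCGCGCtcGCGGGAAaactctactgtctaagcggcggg
*Rrm2*: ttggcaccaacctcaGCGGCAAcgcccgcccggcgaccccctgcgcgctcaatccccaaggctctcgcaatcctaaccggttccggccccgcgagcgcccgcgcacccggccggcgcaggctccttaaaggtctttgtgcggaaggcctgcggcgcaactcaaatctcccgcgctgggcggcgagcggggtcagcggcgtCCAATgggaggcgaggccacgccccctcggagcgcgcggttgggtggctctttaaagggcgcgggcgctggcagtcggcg
*Bub1*: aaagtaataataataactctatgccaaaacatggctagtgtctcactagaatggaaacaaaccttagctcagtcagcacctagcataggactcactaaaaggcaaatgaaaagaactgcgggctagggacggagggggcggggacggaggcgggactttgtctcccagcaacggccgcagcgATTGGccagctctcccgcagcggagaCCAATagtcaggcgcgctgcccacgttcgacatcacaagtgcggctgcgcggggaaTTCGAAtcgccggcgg
*Top2a*: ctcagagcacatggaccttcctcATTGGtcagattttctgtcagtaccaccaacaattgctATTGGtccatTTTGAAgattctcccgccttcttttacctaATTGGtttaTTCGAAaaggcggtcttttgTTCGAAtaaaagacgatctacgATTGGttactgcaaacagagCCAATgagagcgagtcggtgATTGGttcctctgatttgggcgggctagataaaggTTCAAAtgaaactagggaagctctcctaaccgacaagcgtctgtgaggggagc
*Cdc45*: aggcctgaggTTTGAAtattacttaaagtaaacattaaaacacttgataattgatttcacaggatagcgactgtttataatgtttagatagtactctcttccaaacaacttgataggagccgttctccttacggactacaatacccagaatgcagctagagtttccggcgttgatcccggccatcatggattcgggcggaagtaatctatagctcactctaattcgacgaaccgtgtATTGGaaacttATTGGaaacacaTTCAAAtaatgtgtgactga

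The *Mcm5* promoter held 3 E2F and 3 NF-Y matches and no CHR match, and the *Rfc3* promoter held 2 E2F matches, 1 CHR match and 1 NF-Y match. The *Rrm2* promoter, of a gene that went the other way in iMEFs, held 1 E2F match and 1 NF-Y match. The *Bub1* promoter held 1 CHR and 2 NF-Y matches, and that of *Top2a* held 4 CHR and 6 NF-Y matches. The *Cdc45* promoter, of an S phase gene, held 2 CHR matches, 2 NF-Y matches and no E2F match. Of the promoters of members higher in senescent iMEFs, 1 of 6 (5 genes) held an E2F match, and of those of members lower in senescent iMEFs, 3 of 4 (4 genes) did. CHR matches were in 2 of 6 and 1 of 4 of these promoters, and NF-Y matches in 5 of 6 and 3 of 4. The 2 sets are small, were picked by the calls and differ in class, and a link between motif and direction was not tested.

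In senescent iMEFs most replication and mitosis genes had changes near 0, and 12 passed the test, most of them by small amounts. All 54 members passed the filter on low counts in iMEFs. Summed over the members, the level was 9482, 9611 and 8863 CPM in senescent iMEFs, against 8988, 9196 and 9205 CPM in control iMEFs. The groups overlapped, and senescent replicate 3 was the lowest of the 6 libraries. Of the 54 members, 7 (13.0%) were higher in senescent iMEFs, beside 18.6% of all genes tested, and 5 (9.26%) were lower, beside 21.2% of all genes tested. The members therefore passed in a smaller share than all genes did, in both directions. The median change was 0.00 for the members and 0.00 for all 13561 genes tested, and the median size of a change was 0.15 for the members and 0.27 for all genes. The 95% interval of 45 members (83.3%) lay within 0.5 of 0 on the log2 scale, as did that of 41.1% of all genes tested. The median SE was 0.0842 for the members and 0.114 for all genes, so these 2 shares also depend on precision.

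The medians of the S phase and mitosis genes lay on opposite sides of 0 in iMEFs, both close to it. Of 22 S phase genes 1 (4.55%) rose, 3 (13.6%) fell and 18 did not pass, beside 18.6% and 21.2% of all genes tested. A positive change was found for 9 S phase genes, with a class median of -0.05. Of 20 mitosis genes 4 rose, 0 fell and 16 did not pass, beside 18.6% higher and 21.2% lower of all genes tested. The share of mitosis genes that rose was thus close to that of all genes. Of the same 20, 13 had a positive change, beside 50.3% of all genes tested, with a class median of 0.10. At an unadjusted p under 0.05, 6 of 20 mitosis genes differed in either direction, a smaller share than the 48.1% of all genes tested. Among these 6 mitosis genes *Plk1* was the one below 0, at -0.24 (adjusted p = 0.0529 by edgeR with Benjamini-Hochberg adjustment). DESeq2 and limma-voom also called 0 mitosis genes lower, but *Plk1* passed with no filter on low counts, with a block for the replicate number, without control replicate 3 and without senescent replicate 1. Of 12 genes of G1/S control 2 (16.7%) rose, 2 (16.7%) fell and 8 did not pass, with a median of 0.02. Library by library, the median deviation of the S phase genes from the control mean was -0.01, 0.03 and -0.13 on the log2 scale in senescent iMEFs and -0.03, 0.03 and 0.02 in control iMEFs. That of the mitosis genes was 0.10, 0.13 and -0.02 in senescent iMEFs and -0.04, 0.00 and 0.05 in control iMEFs. Without senescent replicate 3 the S phase median was 0.01, on the other side of 0, and the mitosis median was 0.14, while without control replicate 1 and without senescent replicate 2 the mitosis median was 0.05 and 0.04. The groups overlapped for both classes, and in each of the 3 senescent libraries the mitosis median lay above the S phase median. The control libraries are themselves the reference of these deviations, which holds their medians near 0, so they cannot serve as a measure of that gap.

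**Figure D2:**
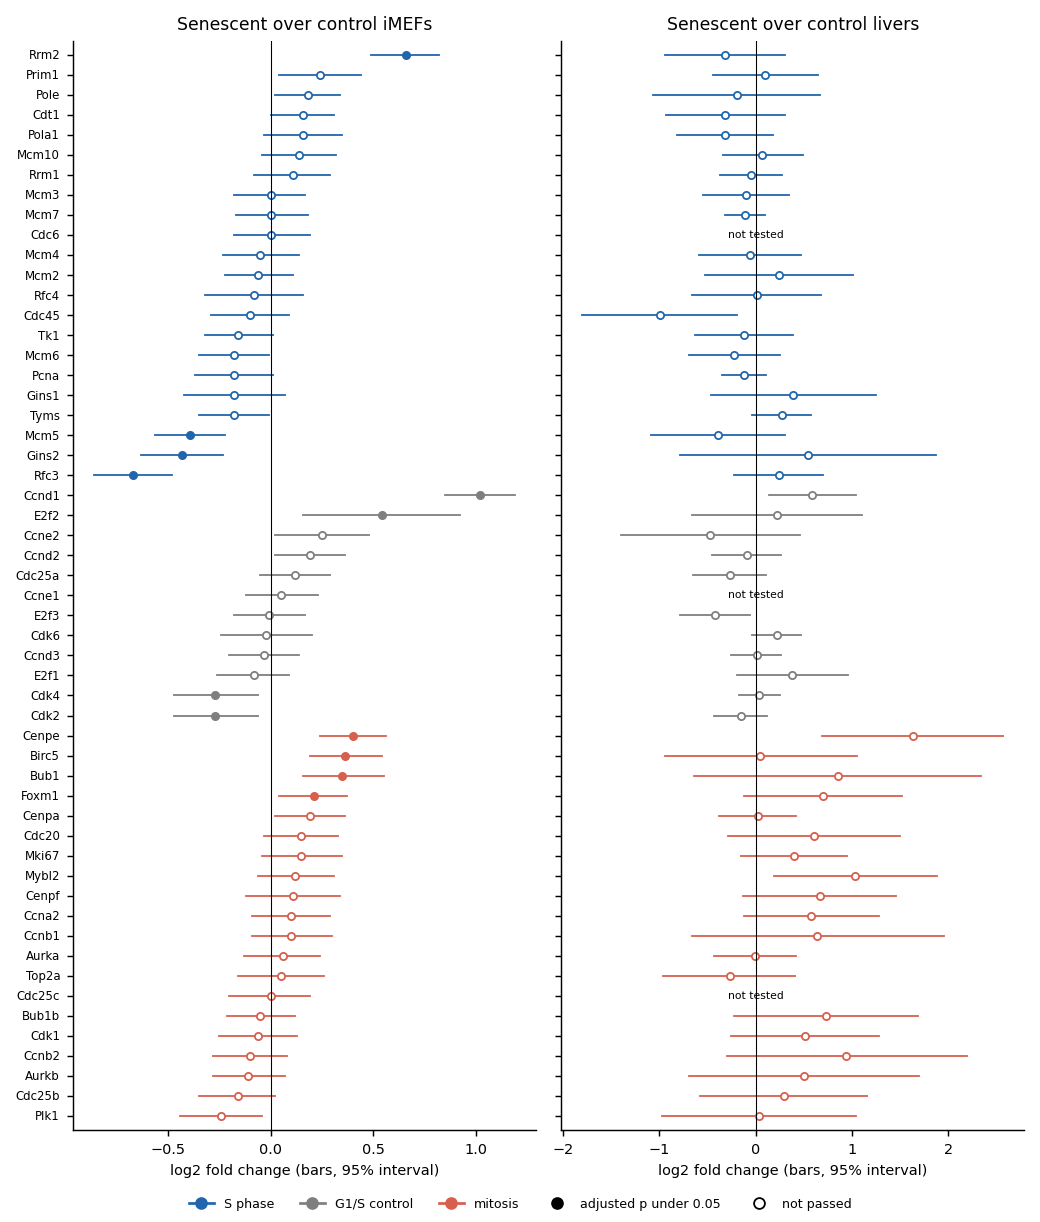
Change of each member (log2 fold change, x axis, senescent over control) in iMEFs (left) and livers (right), with 95% intervals as bars and the 3 classes in colours, ordered by the iMEF change within each class. Filled points passed an adjusted p under 0.05, which 12 members did in iMEFs and 0 in livers, and the 2 panels have different x scales.

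Among the genes that load and activate the replicative helicase, most had changes near 0. *Mcm2*, a subunit of the MCM ring that unwinds DNA, was at 332, 334 and 315 CPM in senescent iMEFs, against 337, 353 and 331 CPM in control iMEFs. The groups overlapped, and the change was -0.06 (95% interval -0.22 to 0.11). *Mcm3*, *Mcm4* and *Mcm7*, of the same ring, had changes of 0.00, -0.05 and 0.00 (the exons of *Mcm7* overlap those of *Ap4m1* and *Cops6*). *Mcm6*, the subunit next in size of fall, was at -0.18 and did not pass (adjusted p = 0.0822 by edgeR with Benjamini-Hochberg adjustment). *Mcm5*, which completes the ring (ENSMUSG00000005410, chr8:75109569-75128439, gene coordinates throughout in GRCm38), was at 191, 202 and 192 CPM in senescent iMEFs, against 254, 270 and 244 CPM in control iMEFs. Every senescent library lay below every control library, and the change of -0.39 (SE 0.0767) passed, with an adjusted p of 0.00158 from edgeR with Benjamini-Hochberg adjustment.

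The GINS complex and CDC45 join the MCM ring to form the active helicase. *Gins2*, a GINS subunit (ENSMUSG00000031821, chr8:120578633-120589304), was at 45.0, 50.3 and 43.1 CPM in senescent iMEFs, against 65.9, 63.3 and 57.2 CPM in control iMEFs. The groups did not overlap, and the change was -0.43 (SE 0.0939, adjusted p = 0.0032 by edgeR with Benjamini-Hochberg adjustment). Its exons overlap those of *Gse1* on the other strand. *Gins1*, another GINS subunit, was at -0.18, and *Cdc45* was at 72.7, 65.7 and 62.2 CPM in senescent iMEFs, against 70.4, 75.5 and 68.8 CPM in control iMEFs. Neither passed. The loading factors *Cdc6*, with a change of 0.00, and *Cdt1*, with 0.16, and *Mcm10*, which helps to start the fork, with 0.14, did not pass either.

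At the fork, the clamp loader subunit *Rfc3* had the largest fall of any member. *Rfc3* (ENSMUSG00000033970, chr5:151642756-151651242) was at 51.1, 49.6 and 43.8 CPM in senescent iMEFs, against 74.2, 79.3 and 76.8 CPM in control iMEFs. The groups were apart, and the change was -0.67 (SE 0.0883, adjusted p = 8.41e-05 by edgeR with Benjamini-Hochberg adjustment). *Rfc4*, another subunit of the clamp loader, was at -0.08 (95% interval -0.32 to 0.16) and did not pass. *Pcna*, the sliding clamp that RFC loads, was at 384, 411 and 346 CPM in senescent iMEFs, against 430, 419 and 446 CPM in control iMEFs. Its groups did not overlap, but the change of -0.18 did not pass (adjusted p = 0.114 by edgeR with Benjamini-Hochberg adjustment). The primase gene *Prim1* and the polymerase genes *Pola1* and *Pole* had changes of 0.24, 0.16 and 0.18, and none passed.

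Of the 4 genes of nucleotide supply 1 rose and 3 did not pass. *Rrm2*, the small subunit of the ribonucleotide reductase that makes deoxyribonucleotides (ENSMUSG00000020649, chr12:24708241-24714146), was at 339, 322 and 311 CPM in senescent iMEFs, against 202, 208 and 207 CPM in control iMEFs. It was higher in every senescent library, by 0.66 (SE 0.0757, adjusted p = 2.97e-05 by edgeR with Benjamini-Hochberg adjustment), a fold of 1.58. *Rrm1*, the large subunit of the same enzyme, was at 434, 460 and 412 CPM in senescent iMEFs, against 375, 406 and 432 CPM in control iMEFs. Its groups overlapped and its change was 0.11. *Tyms*, the thymidylate synthase, was at -0.18 and *Tk1*, the thymidine salvage kinase, at -0.16, and neither passed.

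Among the genes of G1/S control, *Ccnd1* had the largest change of any member. *Ccnd1*, which encodes cyclin D1 (ENSMUSG00000070348, chr7:144929931-144939925), was at 264, 243 and 237 CPM in senescent iMEFs, against 121, 127 and 118 CPM in control iMEFs. The groups were far apart, with a change of 1.02 (SE 0.0777, adjusted p = 9.1e-07 by edgeR with Benjamini-Hochberg adjustment), a fold of 2.03. Its exons overlap those of *LTO1* on the other strand. The other D-type cyclins, *Ccnd2* at 0.19 and *Ccnd3* at -0.03, did not pass. *Cdk4*, the kinase partner of cyclin D1, was at 592, 627 and 536 CPM in senescent iMEFs, against 736, 728 and 646 CPM in control iMEFs. It fell, with a change of -0.27 (adjusted p = 0.0406 by edgeR with Benjamini-Hochberg adjustment), and did not pass with RLE size factors (adjusted p = 0.052 by edgeR with Benjamini-Hochberg adjustment). *Cdk6*, its close relative, was at -0.02.

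*Cdk2*, the kinase partner of E and A cyclins, was at 109, 102 and 132 CPM in senescent iMEFs, against 138, 141 and 134 CPM in control iMEFs. The groups did not overlap, although senescent replicate 3 lay close to the controls, and the change was -0.27 (adjusted p = 0.0385 by edgeR with Benjamini-Hochberg adjustment). The exons of *Cdk4* overlap those of *Tspan31* and the exons of *Cdk2* those of *Pmel*. *Ccne1* and *Ccne2*, the E cyclins, were at 0.05 and 0.25, and *Cdc25a*, the phosphatase that activates CDK2, was at 0.12, and none passed. *E2f2*, one of the activating E2F factors, was at 5.53, 5.85 and 7.40 CPM in senescent iMEFs, against 4.36, 3.94 and 4.51 CPM in control iMEFs. It rose by 0.54 (SE 0.175, adjusted p = 0.0245 by edgeR with Benjamini-Hochberg adjustment), with 328 reads in senescent iMEFs and 243 in control iMEFs. DESeq2 did not call it (adjusted p = 0.0558). *E2f1* and *E2f3*, of the same group, were at -0.08 and -0.01.

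Genes commonly used to mark dividing cells did not pass in iMEFs. *Mki67*, the proliferation antigen, was at 324, 270 and 317 CPM in senescent iMEFs, against 281, 255 and 283 CPM in control iMEFs. The change was 0.15, with a 95% interval of -0.04 to 0.35. *Top2a*, the topoisomerase that untangles chromosomes, was at 604, 611 and 527 CPM in senescent iMEFs, against 518, 556 and 609 CPM in control iMEFs. The change was 0.05, with a 95% interval of -0.16 to 0.26. For both genes the senescent and control libraries overlapped.

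The kinase and cyclin that drive entry into mitosis did not pass either. *Cdk1*, the mitotic kinase, was at 225, 243 and 199 CPM in senescent iMEFs, against 225, 236 and 236 CPM in control iMEFs. *Ccnb1*, which encodes its partner cyclin B1, was at 286, 312 and 269 CPM in senescent iMEFs, against 244, 272 and 289 CPM in control iMEFs. Both overlapped between groups, with changes of -0.06 (95% interval -0.25 to 0.13) and 0.10 (95% interval -0.09 to 0.30). *Ccna2* (cyclin A2) was at 0.10, *Ccnb2* (cyclin B2) at -0.10, and the phosphatases *Cdc25b* and *Cdc25c*, which switch CDK1 on, at -0.16 and 0.00. The mitotic kinases *Aurka* and *Aurkb* were at 0.06 and -0.11, and none of these passed.

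The 4 mitosis genes that rose are of the kinetochore, of the chromosomal passenger complex and of transcription. *Cenpe*, a kinetochore motor (ENSMUSG00000045328, chr3:135212537-135273611), was at 168, 164 and 167 CPM in senescent iMEFs, against 123, 121 and 134 CPM in control iMEFs, a change of 0.40 (SE 0.0742, adjusted p = 0.0011 by edgeR with Benjamini-Hochberg adjustment). *Birc5*, which encodes survivin of the passenger complex (ENSMUSG00000017716, chr11:117849251-117855743), was at 131, 153 and 138 CPM in senescent iMEFs, against 103, 109 and 115 CPM in control iMEFs, a change of 0.36 (SE 0.0823, adjusted p = 0.0039 by edgeR with Benjamini-Hochberg adjustment). *Bub1*, a kinase of the spindle checkpoint (ENSMUSG00000027379, chr2:127801122-127831865), was at 153, 168 and 150 CPM in senescent iMEFs, against 111, 122 and 136 CPM in control iMEFs, a change of 0.35 (SE 0.0896, adjusted p = 0.00778 by edgeR with Benjamini-Hochberg adjustment). In all 3, every senescent library lay above every control library.

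*Foxm1*, the transcription factor of mitosis genes, was at 223, 217 and 214 CPM in senescent iMEFs, against 201, 187 and 178 CPM in control iMEFs, a change of 0.21 (adjusted p = 0.047 by edgeR with Benjamini-Hochberg adjustment). The exons of *Foxm1* overlap those of *Tex52*. *Mybl2*, which encodes B-MYB, was at 0.12 and did not pass. Of the other kinetochore and checkpoint genes, *Cenpa* was at 0.19, *Cenpf* at 0.11, *Bub1b* at -0.05 and *Cdc20*, the activator of the anaphase-promoting complex, at 0.15, and none passed.

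Single libraries decided several of these calls. Without control replicate 1, 4 members were higher and 3 lower, with *Bub1*, *Cdk2*, *Cdk4*, *E2f2* and *Foxm1* lost, and without senescent replicate 3, 11 were higher. Without control replicate 2, 3 were lower, with *Cdk2*, *Cdk4*, *E2f2* and *Foxm1* lost. *Cdk4* was also lost without senescent replicate 1 (adjusted p = 0.107 by edgeR with Benjamini-Hochberg adjustment), and *E2f2* without senescent replicate 3 (adjusted p = 0.0673 by edgeR with Benjamini-Hochberg adjustment). *Cdk2* and *Foxm1* still passed without senescent replicate 3 but were lost on leaving out any other library and with a block for the replicate number (adjusted p = 0.0574 for *Cdk2* and 0.0593 for *Foxm1* by edgeR with Benjamini-Hochberg adjustment). *Foxm1* was lost with no filter on low counts too. By contrast, *Ccnd1*, *Rrm2*, *Rfc3*, *Mcm5*, *Gins2*, *Cenpe* and *Birc5* passed without each of the 6 libraries.

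**Figure D3:**
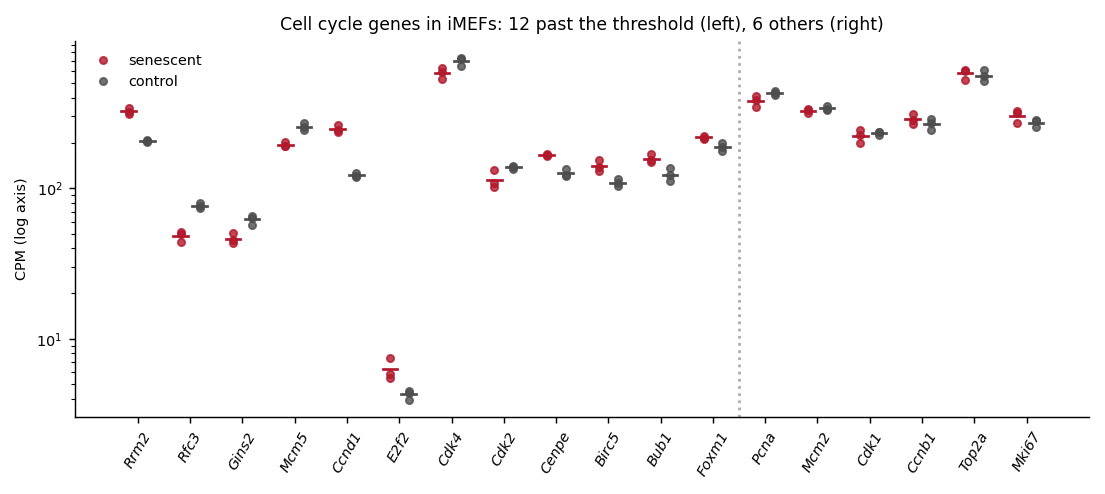
Level (CPM, log y axis) in each of the 3 senescent and 3 control iMEF cultures (points) with the group mean (line), for the 12 members that passed and for 6 standard proliferation genes that did not. *Ccnd1* and *Rrm2* stood higher in senescent iMEFs and *Rfc3* lower. Of the 6 genes on the right, *Pcna* lay below all its controls and the others overlapped theirs.

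Genes of the same pathways that are not members moved in iMEFs as follows. Of 57 other S phase genes 12 (21.1%) rose and 8 (14%) fell, beside 18.6% and 21.2% of all genes tested, with a median of 0.03. Those that rose include *Orc4* (0.59) and *Orc2* (0.55), subunits of the origin recognition complex, *Hells* (0.46), a chromatin remodeller, and *Atad2* (0.39), a chromatin-bound ATPase. Those that fell include *Chaf1b* (-0.48), a histone chaperone at the fork, *Lig1* (-0.40), the ligase that joins Okazaki fragments, *Rpa2* (-0.37), which coats single-stranded DNA, and *Timeless* (-0.29), which protects the fork.

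Of 85 other mitosis genes 31 (36.5%) rose and 7 (8.24%) fell, beside 18.6% and 21.2% of all genes tested, with a median of 0.15. The smallest p-values among those that rose were for *Gtse1* (0.99), a microtubule-binding regulator of p53, *Ckap2* (0.87) and *Psrc1* (1.63), spindle proteins, and *Cep55* (0.69), which acts in the final cut between daughter cells. Among those that fell they were for *Cenpw* (-0.63) of the kinetochore, *Incenp* (-0.35) of the passenger complex, *Cdca3* (-0.26), a cofactor of mitotic entry, and *Ncaph* (-0.25), a condensin subunit. Of the 85, 58 (68.2%) had a positive change, beside 50.3% of all genes tested.

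Of 19 other G1/S regulators tested, out of 22, 8 (42.1%) rose and 3 (15.8%) fell, beside 18.6% and 21.2% of all genes tested. *Mybl1*, a relative of *Mybl2*, rose by 1.40, *Lin54*, a MuvB subunit, by 0.45, *Fbxw7*, which marks cyclin E for destruction, by 0.36, and *E2f4*, a repressive E2F factor, by 0.29. *Cables1*, a CDK-binding protein, fell with a change of -1.43, and *Mnat1* and *Cdk7*, parts of the CDK-activating kinase, with changes of -0.45 and -0.39.

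In livers most members were at far lower levels than in iMEFs, and 0 passed with edgeR. Levels in the 2 tissues were normalized separately, so ratios between them are descriptive. Control iMEFs had 92.5 times the CPM of control livers for *Mcm2*, 131 times for *Cdk1*, 163 times for *Top2a* and 427 times for *Ccnb1*, but 1.28 times for *Ccnd1* and 1.82 times for *Cdk6*. The summed mitosis genes were at 35.8, 42.8, 36.1 and 54 CPM in senescent livers, against 34.0, 38.3, 24.8 and 33.2 CPM in control livers. The groups overlapped, with senescent replicate 4 the highest and control replicate 3 the lowest. The summed S phase genes were at 141, 163, 171 and 183 CPM in senescent livers, against 176, 172, 143 and 192 CPM in control livers, and overlapped throughout. In these bulk samples fewer cells of a type and less RNA per cell cannot be told apart.

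Of the 54 members 51 passed the filter in livers (not *Cdc6*, *Ccne1* and *Cdc25c*, with 22, 13 and 8 reads over the 4 senescent livers and 27, 16 and 2 over the 4 control livers). With edgeR 0 of 51 were higher, beside 0.308% of all 14270 genes tested, and 0 were lower, beside 0.035%. At an unadjusted p under 0.05, 5 members differed (9.8%), beside 7.54% of all genes. DESeq2 called 1 member (*Cenpe*) and limma-voom 0. The 95% interval of 11 of the 51 (21.6%) lay within 0.5 of 0 on the log2 scale, beside 50.7% of all genes tested. For most members the interval thus reached a change of 0.5 or more. The median SE in livers was 0.287 for the members and 0.157 for all genes, so these 2 shares also depend on precision.

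**Figure D4:**
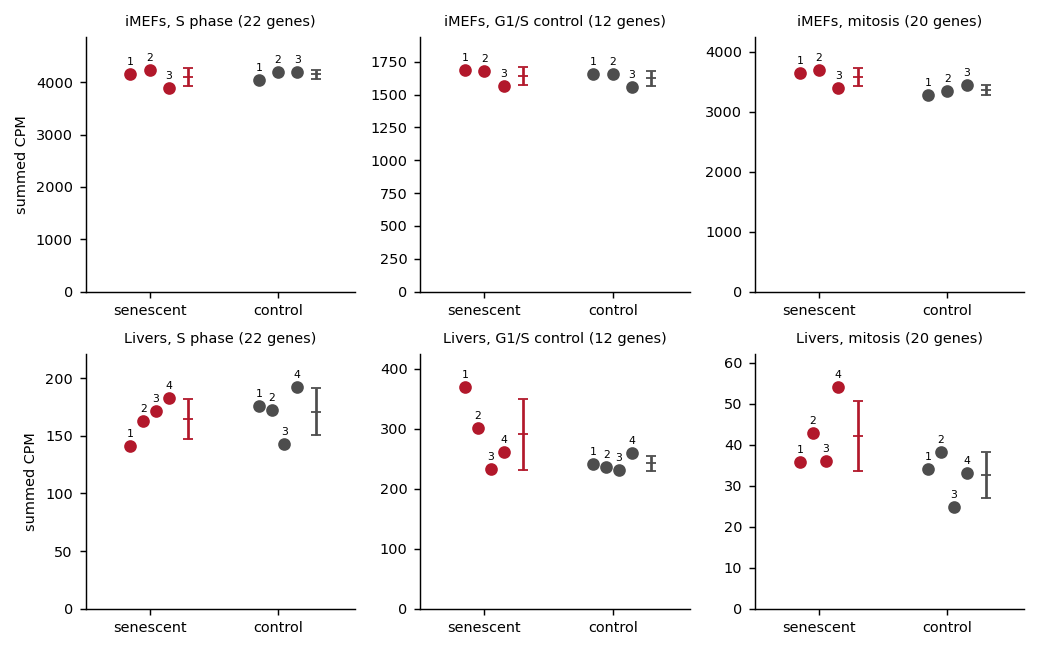
Summed level (CPM, y axis from 0) of the S phase, G1/S control and mitosis members in each library, numbered by replicate, with the group mean and SD beside the points, in iMEFs (top) and livers (bottom). Senescent and control libraries overlapped in all 6 panels.

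The mitosis genes lay mostly above 0 in livers and the S phase genes did not. Of 19 mitosis genes tested 17 had a positive change, with a median of 0.58, and of 21 S phase genes 8 had one, with a median of -0.10, beside 49.3% and a median of 0.00 for all genes. Of the 19, *Ccnb2*, *Cdc25b*, *Bub1b*, *Cenpe* and *Mybl2* were over the filter's 0.592 CPM in all 4 senescent livers but not in all 4 control livers. *Bub1* was over it in 3 senescent livers and 1 control liver, and *Ccnb1* in 3 and 2, while *Plk1* was over it in 3 and 4. The share and the median are therefore given as a description. The median deviation of the tested mitosis genes from the control mean was 0.10, 0.35, 0.40 and 0.75 in senescent livers and 0.13, 0.16, -0.27 and 0.13 in control livers, which overlapped. The mitosis median change was 0.37 without control replicate 3 and 0.41 without senescent replicate 4, and the S phase median was 0.02 without senescent replicate 1. Markers of other cell types were read beside it, and 0 of their genes passed with edgeR in livers. The summed 7 B and plasma cell markers were at 21.3, 20.6, 24.7 and 52.7 CPM in senescent livers and 17.5, 14.5, 18.1 and 30.9 CPM in control livers, highest in senescent replicate 4 as for the mitosis genes. The summed 8 erythroid markers were at 135 to 280 CPM in senescent livers and 112 to 179 CPM in control livers, the 9 macrophage markers at 491 to 582 and 259 to 584 CPM, and the 12 T and NK cell markers at 5.99 to 8.92 and 6.27 to 11.3 CPM. The summed 6 cholangiocyte markers were at 115, 79.8, 101 and 136 CPM in senescent livers and 76.4, 71.3, 56.7 and 113 CPM in control livers, with the highest and the lowest library the same as for the mitosis genes. Stellate cell markers summed to 420 to 477 CPM in senescent livers and 339 to 439 CPM in control livers, endothelial markers to 276 to 337 and 249 to 284 CPM, neutrophil markers to 1.65 to 5.2 and 2.35 to 3.44 CPM, and hepatocyte markers to 88793 to 107329 and 79767 to 90623 CPM. The part of these cell types in the levels of the mitosis genes was not tested.

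*Cenpe* had the largest change of any member in livers. It was at 1.10, 2.45, 1.08 and 2.27 CPM in senescent livers, against 0.558, 0.645, 0.304 and 0.388 CPM in control livers, with 109 and 33 reads in all. The groups did not overlap, and the change was 1.63 (95% interval 0.69 to 2.57, adjusted p = 0.15 by edgeR with Benjamini-Hochberg adjustment), which DESeq2 called with an adjusted p of 0.03. *Mybl2* was at 1.10, 0.991, 1.34 and 1.64 CPM in senescent livers, against 0.669, 0.410, 0.365 and 0.777 CPM in control livers, also with no overlap, at 1.03 (95% interval 0.19 to 1.88, adjusted p = 0.471 by edgeR with Benjamini-Hochberg adjustment). *Ccnb2* was at 0.94, *Bub1* at 0.85, *Bub1b* at 0.73, *Foxm1* at 0.70, *Cenpf* at 0.67, *Ccnb1* at 0.64 and *Cdc20* at 0.61, and each overlapped between the groups. *Mki67* was at 4.80, 4.82, 4.33 and 7.32 CPM in senescent livers, against 3.07, 5.75, 3.65 and 3.55 CPM in control livers, at 0.40 (95% interval -0.15 to 0.95). *Top2a* was at 2.02, 3.44, 2.23 and 3.66 CPM in senescent livers, against 3.51, 4.81, 1.89 and 3.55 CPM in control livers. It was below 0, at -0.27 (95% interval -0.96 to 0.41).

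*Cdk1* and *Ccnb1* had few reads in livers. *Cdk1* was at 1.56, 3.17, 2.48 and 3.16 CPM in senescent livers, against 2.01, 2.29, 0.851 and 1.94 CPM in control livers. *Ccnb1* was at 0.636, 0.595, 0.892 and 2.08 CPM in senescent livers, against 1.28, 0.176, 0.669 and 0.388 CPM in control livers, with 67 and 44 reads. Both overlapped, at 0.51 (95% interval -0.25 to 1.28) and 0.64 (95% interval -0.66 to 1.95). *Ccna2*, *Aurkb* and *Cdc25b* were at 0.58, 0.50 and 0.29, and *Birc5*, *Plk1*, *Cenpa* and *Aurka* were at 0.05, 0.04, 0.02 and -0.01.

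Among S phase genes in livers, *Cdc45* stood apart. It was at 0.694, 0.463, 0.637 and 0.631 CPM in senescent livers, against 1.56, 1.17, 0.851 and 1.72 CPM in control livers, with 39 and 93 reads in all. Every senescent liver lay below every control liver, and the change was -0.99 (95% interval -1.80 to -0.19, adjusted p = 0.471 by edgeR with Benjamini-Hochberg adjustment). Its exons overlap those of *Ufd1*. *Tyms* was at 8.67, 8.99, 8.66 and 9.16 CPM in senescent livers, against 7.42, 6.51, 6.75 and 8.60 CPM in control livers, again with no overlap, at 0.27 (95% interval -0.04 to 0.58). *Pcna* was at 30, 30.2, 25.5 and 29.0 CPM in senescent livers, against 36.2, 30.4, 30.2 and 28.1 CPM in control livers, at -0.12 (95% interval -0.35 to 0.11).

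The other S phase genes overlapped between senescent and control livers. *Mcm2* was at 3.76, 6.01, 2.68 and 5.11 CPM in senescent livers, against 3.40, 4.16, 1.64 and 5.49 CPM in control livers, at 0.24 (95% interval -0.52 to 1.01). *Mcm5*, lower in senescent iMEFs, was at 1.85, 3.11, 1.78 and 3.35 CPM in senescent livers, against 2.95, 3.46, 2.13 and 4.77 CPM in control livers, at -0.39 (95% interval -1.08 to 0.30). *Gins2* and *Gins1* were at 0.54 and 0.39, *Mcm3*, *Mcm4*, *Mcm6*, *Mcm7* and *Mcm10* at -0.10, -0.06, -0.22, -0.11 and 0.07, and *Cdt1* at -0.32. *Rfc4*, *Prim1*, *Pola1* and *Pole* were at 0.01, 0.10, -0.32 and -0.19, and *Rrm1* and *Tk1* at -0.05 and -0.12. The exons of *Tk1* overlap those of *Afmid*, a gene of the other strand, and no source used here gives the strand setting of the counting.

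*Ccnd1* had the largest change of the G1/S genes in livers. It was at 221, 142, 98.2 and 110 CPM in senescent livers, against 92.1, 97.9, 88.1 and 103 CPM in control livers. Senescent replicates 1 and 2 lay above all control livers, as did replicate 4 by less, replicate 3 lay among the controls, and the change was 0.59 (95% interval 0.14 to 1.04, adjusted p = 0.522 by edgeR with Benjamini-Hochberg adjustment). Without senescent replicate 1 the change was 0.30. *E2f3* was at 6.65, 9.45, 7.20 and 7.64 CPM in senescent livers, against 12.7, 10.0, 8.70 and 9.99 CPM in control livers, at -0.42 (95% interval -0.78 to -0.06). *E2f1*, *E2f2*, *Cdk6*, *Cdk4* and *Ccnd3* were at 0.38, 0.22, 0.22, 0.04 and 0.01, and *Ccnd2*, *Cdk2*, *Cdc25a* and *Ccne2* were at -0.09, -0.15, -0.27 and -0.47.

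The listed genes of the same pathways that are not members gave 2 calls in livers. *Gtse1* was at 3.53, 4.63, 3.57 and 3.91 CPM in senescent livers, against 0.502, 0.704, 1.34 and 0.610 CPM in control livers, and rose by 2.16 (SE 0.328, adjusted p = 0.00718 by edgeR with Benjamini-Hochberg adjustment). *Mybl1* was at 3.12, 4.10, 6.82 and 5.87 CPM in senescent livers, against 1.73, 1.17, 1.03 and 0.666 CPM in control livers, and rose by 2.0 (SE 0.343, adjusted p = 0.019 by edgeR with Benjamini-Hochberg adjustment). Both had risen in senescent iMEFs too. They were 1 of 64 other mitosis genes (1.56%) and 1 of 18 other G1/S regulators (5.56%) tested, beside 0.308% of all genes tested that were higher. Of 48 other S phase genes 0 passed with edgeR and 3 (6.25%) had an unadjusted p under 0.05, beside 7.54% of all genes. The median change was 0.25 for the other mitosis genes, with 51 of 64 positive (79.7%), beside 49.3% of all genes tested, and 0.00 for the other S phase genes. Only 64 of the 85 other mitosis genes passed the filter. *Nuf2* had a mean of 0.358 CPM in control livers, under the filter's 0.592 CPM, and 0.968 CPM in senescent livers. *Kif4* lay the other way, at 0.873 and 0.46 CPM. Genes near the cutoff can pass through their higher group, so this share and these medians are a description.

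The difference between the tissues, the iMEF change minus the liver change, was tested in 1 edgeR fit over all 14 libraries, in which all 54 members passed the filter. That fit took 1 estimate of the spread per gene for both tissues. The SE of a difference can therefore be smaller than the SE of the liver change alone, and the calls are limited by this. It passed for 5 members (9.26%), beside 10.3% of all 16503 genes tested. *Rrm2* rose in iMEFs, and was at 2.66, 3.37, 3.69 and 3.47 CPM in senescent livers, against 5.24, 5.75, 3.10 and 2.44 CPM in control livers, which overlapped. The difference was 0.98 (SE 0.27, adjusted p = 0.0264 by edgeR with Benjamini-Hochberg adjustment). *Rfc3* fell in iMEFs, and was at 5.96, 7.86, 9.56 and 8.84 CPM in senescent livers, against 6.41, 7.80, 4.74 and 8.21 CPM in control livers, with a difference of -0.90 (SE 0.235, adjusted p = 0.0201 by edgeR with Benjamini-Hochberg adjustment).

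*Cenpe*, which rose in iMEFs, had a still higher estimate in livers, with a difference of -1.28 (SE 0.348, adjusted p = 0.0135 by edgeR with Benjamini-Hochberg adjustment). *Mybl2* was at 75.7, 71.3 and 72.3 CPM in senescent iMEFs, against 70.8, 68.3 and 62.2 CPM in control iMEFs, and its difference was -0.94 (SE 0.281, adjusted p = 0.0239 by edgeR with Benjamini-Hochberg adjustment). *Cdc45*, close to its control level in iMEFs, had a difference of 0.94 (SE 0.279, adjusted p = 0.0241 by edgeR with Benjamini-Hochberg adjustment). In the fit of livers alone the SE was larger, at 0.431 for *Cenpe*, 0.386 for *Mybl2* and 0.367 for *Cdc45*, and none of them passed there. The liver SE was also larger for *Rrm2*, at 0.287, but smaller for *Rfc3*, at 0.209. By class, 2 S phase genes (9.09%) were on the iMEF side and 1 (4.55%) on the liver side, and 2 mitosis genes (10.0%) were on the liver side. Over all genes tested these shares were 4.4% on the iMEF side and 5.91% on the liver side. The median difference was 0.06 for the S phase genes and -0.52 for the mitosis genes. *Gins2*, with a difference of -0.96, and *Ccnb2*, with -1.06, did not pass. Of the 5 calls, *Cenpe* alone was kept without each of the 14 libraries, and 2 members passed without control iMEF replicate 1 and likewise without control iMEF replicate 2, while 3 passed without senescent iMEF replicate 1 and likewise without control liver replicate 1.

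**Figure D5:**
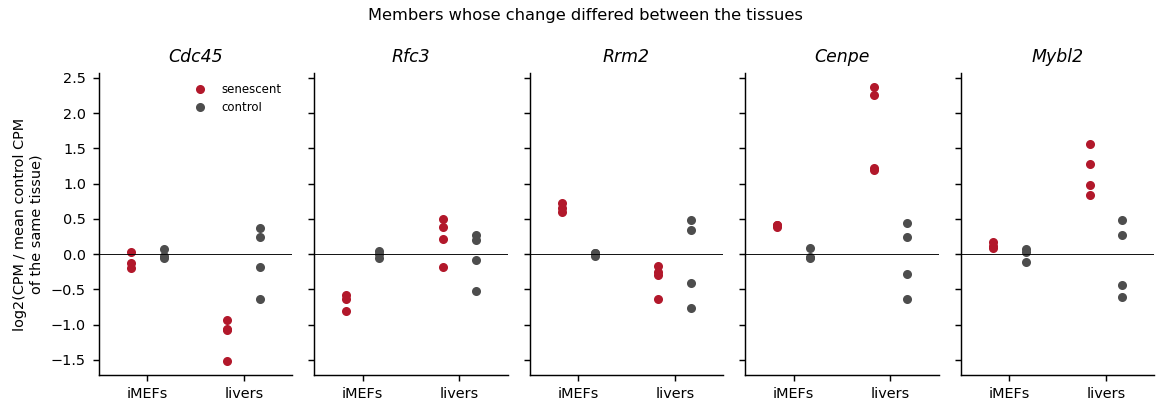
Level of the 5 members whose change differed between the tissues, as log2 of CPM over the mean control CPM of the same tissue (y axis), in senescent and control iMEFs and livers (points, 1 per library). *Rrm2* and *Rfc3* were set apart in iMEFs and overlapped in livers, and *Cenpe* and *Mybl2* stood higher in all 4 senescent livers.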

How the data were processed

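RNA-seq was analysed from 3 senescent and 3 control iMEF cultures and from 4 senescent and 4 control livers, which the authors call biological replicates. The authors deposited a table of raw gene counts for each tissue. The submitters' processing notes name STAR, featureCounts and the mm10 build, and no source used here gives versions, the annotation release or the strand setting. Normalized tables were also deposited and were not used.

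Each tissue was fitted with edgeR 4.0.16 in R 4.3.3 (filterByExpr, TMM, prior count 2, quasi-likelihood test, Benjamini-Hochberg adjustment over all genes tested, threshold 0.05). The difference between tissues was a contrast in 1 fit over 14 libraries, with 1 estimate of the spread per gene for both tissues. The authors' methods used DESeq2, which was run here as version 1.42.0 as an alternative, beside limma-voom 3.58.1, RLE factors, no filter, a block for the replicate number, an adjusted p threshold of 0.01 and leaving out each library. The fits were tested on simulated data. Class medians carry no test. Libraries held 15364450 to 20177401 reads in genes, and precision follows from the reads of each gene.

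The members and lists were chosen with earlier results of these data known. All 54 members are named, with values per library for those that passed, for the largest changes of each role and for *Mki67*, *Top2a*, *Ccnb1*, *Cdk1*, *Pcna* and *Mcm2*. Of the other genes of the pathways, those named had the smallest p-values in each direction, up to 4. Of the list symbols 1 was not found. Coordinates and exon overlaps, which 20 members have, are from GENCODE M21 (GRCm38, the build of mm10), and promoters are from RefSeq. Python 3.11.15 with pandas 2.3.3 and numpy 2.4.6 made the tables, and matplotlib 3.10.9 drew the figures.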

Additional observations from a re-analysis of the deposited data

Results flagged for a closer look

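In livers 7 values of members stood far from the rest of their group of 4, by the gap to the nearest library over the range of the group, among 108 groups of members and conditions tested. Chance gives such a value in about 1 of 20 groups. In senescent livers these were *Rrm1* in replicate 1, the lowest at 9.37 CPM, *Cdc25a* in replicate 1, the highest at 4.97 CPM, *Bub1* in replicate 1, the lowest at 0.231 CPM, and *Mki67* in replicate 4, the highest at 7.32 CPM. In control livers they were *Pola1* in replicate 3, the highest at 6.51 CPM, *Plk1* in replicate 3, the highest at 1.40 CPM, and *Bub1* in replicate 2, the highest at 0.762 CPM.

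The change differed between iMEFs and livers for 5 members in the test of the difference itself, which took 1 estimate of the spread per gene for both tissues. The iMEF change minus the liver change was 0.98 for *Rrm2*, 0.94 for *Cdc45*, -0.90 for *Rfc3*, -0.94 for *Mybl2* and -1.28 for *Cenpe*, on the log2 scale.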

How the results depend on the processing

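The count of members higher in senescent iMEFs, 7, ranged over 4 to 11 without single libraries, and the count lower, 5, ranged over 3 to 5 and was 3 at a threshold of 0.01. RLE factors, DESeq2 and no filter on low counts each called 12 members in iMEFs, 11 of them shared with the main fit. With no filter *Plk1* was gained as lower and *Foxm1* was lost as higher. In livers DESeq2 called 1 member higher where edgeR called 0. The count of members with a tissue difference, 5, ranged over 2 to 7 without single libraries, and was 8 with no filter on low counts, 3 with limma-voom and 0 at a threshold of 0.01. The cause of these shifts was not tested. In iMEFs *Cdk1* ranged over -0.13 to 0.03 without single libraries, above 0 without senescent replicate 3, and *Top2a* over -0.01 to 0.13, below 0 without control replicate 1, none past the threshold. With the replicate number as a block, 6 members were higher and 5 lower in iMEFs, with *Cdk2* and *Foxm1* lost and *Plk1* gained, 0 were called in livers and 5 differed between tissues. Same-numbered libraries did not deviate together in iMEFs (correlations from -0.171 to -0.00529). In livers the correlations ran from -0.0831 to 0.237, below 0 for replicates 1, 2 and 3 and highest for replicate 4. Livers of different numbers reached at most 0.0831. The numbers are not stated to be pairs and were not read as such. Medians over members that overlap no other gene in exons, chosen after seeing the data, were -0.03 for S phase and 0.11 for mitosis in iMEFs and -0.06 and 0.64 in livers. Low counts are a limit in livers, where *Cenpe* had 109 reads in senescent and 33 in control livers.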
